A study of Mus musculus with 4 samples.

Results

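Mt1, Mt2, Mt3, Mtf1, Slc30a1, Slc39a1, Slc39a10 and Slc39a14 are the metallothioneins, their metal-sensing transcription factor and a set of zinc transporters that were followed here across all conditions of the series. They were taken by symbol from the expression table, and all 8 were found among its 23997 genes. The measurements are RNA sequencing of total RNA from a culture of vessel-lining (endothelial) cells, taken from the lung of C57BL/6 mice and kept in EBM-2 medium with 10% serum. All cells received an siRNA for 48 h, either a control siRNA or one against the glucocorticoid receptor (GR, gene Nr3c1), and part of the cultures also received dexamethasone (DEX), a synthetic glucocorticoid, at 100 nM for 18 h. Each siRNA was thus read without and with DEX, which makes 4 conditions, and every one of them carries an siRNA transfection. Values below run in the order control siRNA alone, control siRNA plus DEX, GR siRNA alone, GR siRNA plus DEX unless stated otherwise. Nr3c1, the target, was 14.4 and 14.3 FPKM in the control columns and 5.45 and 5.32 FPKM in the GR siRNA columns, so the knockdown was partial. The GR target genes Fkbp5, Tsc22d3 and Per1 were each at least 1.5-fold lower with GR siRNA in both DEX states. Of all genes compared, 2.54% were that much lower without DEX and 2.62% with DEX. The differences of these target genes lay between −0.71 (Fkbp5 without DEX) and −1.12 (Tsc22d3 with DEX) on the log2(FPKM + 1) scale.

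The series describes 3 replicates of each of the 4 conditions, while the table holds 1 column per condition. The sources used here do not say whether a column is a replicate, a mean or a pool. Hence there is no SD, n or p-value, and a difference compares single columns without a replicate check. FPKM scales the fragments of a gene by its transcript length and by the size of the library. Differences are all on that log2 scale, which understates those of genes with low values, and genes entered a comparison where at least 1 FPKM was reached in a column compared.

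Metallothioneins are small cysteine-rich proteins that bind zinc and copper, and also cadmium, through the sulphur of their cysteines, and they buffer the free zinc of the cell. Free zinc is sensed by MTF-1, a zinc finger factor that binds metal response elements (MREs) in the promoters of metallothionein genes and of the zinc exporter ZnT1. Zinc enters the cytosol through ZIP transporters (Slc39a genes) and leaves it through ZnT transporters (Slc30a genes). Glucocorticoids are long known to induce metallothionein genes in several tissues.

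The metallothionein genes lie next to each other on the plus strand of chromosome 8, in the order Mt4, Mt3, Mt2, Mt1, within 43131 bases of the mm10 assembly. Mt1 (ENSMUSG00000031765.8) is at 94179082 to 94180327, Mt2 (ENSMUSG00000031762.7) at 94172664 to 94173568, and Mt3 (ENSMUSG00000031760.9) at 94152607 to 94154146. Each has a coding transcript of 3 exons, and 5513 bases separate Mt2 from Mt1. The coding sequences are printed because the family is defined by them and because near-identical copies can exchange reads; they come from the GENCODE M21 transcripts, 5′ to 3′, with cysteine codons in capitals.
Mt1: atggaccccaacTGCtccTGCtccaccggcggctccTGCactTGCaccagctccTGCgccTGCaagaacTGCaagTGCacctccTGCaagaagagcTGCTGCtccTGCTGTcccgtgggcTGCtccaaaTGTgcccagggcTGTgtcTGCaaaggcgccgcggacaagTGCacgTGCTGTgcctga
Mt2: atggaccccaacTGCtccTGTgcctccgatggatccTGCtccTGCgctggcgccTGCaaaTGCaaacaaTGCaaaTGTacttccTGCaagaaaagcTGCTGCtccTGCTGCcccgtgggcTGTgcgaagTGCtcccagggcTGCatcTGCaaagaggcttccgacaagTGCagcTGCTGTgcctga
Mt3: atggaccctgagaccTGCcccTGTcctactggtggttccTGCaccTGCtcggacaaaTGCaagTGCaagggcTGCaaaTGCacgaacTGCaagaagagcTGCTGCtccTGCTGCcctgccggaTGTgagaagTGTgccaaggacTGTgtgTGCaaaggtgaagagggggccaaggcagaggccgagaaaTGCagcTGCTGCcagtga

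All 3 coding sequences carry 20 cysteine codons, out of 61 codons before the stop in Mt1 and Mt2 and 68 in Mt3. The coding sequences of Mt1 and Mt2 are the same at 79.6% of 186 aligned bases, and those of Mt1 and Mt3 at 65.2% of 207. Despite this likeness the longest run shared by the Mt1 and Mt2 coding sequences is 20 bases, and their annotated transcripts have 0 stretches of 31 bases in common. Mt2 overlaps the antisense gene Gm45774 over 749 bases, and 58.1% of the 31-base stretches of the Mt2 transcripts also occur in Gm45774 or Pip5k1a. No source used here gives the strand setting of the counting, so reads of Mt2 and of this antisense gene cannot be told apart.

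The 250 bases upstream of the RefSeq start (GRCm38.p6, plus strand) are shown for Mt1 and Mt2, the metallothioneins that were lower together with GR siRNA. They are chr8:94178839-94179088 for Mt1 and chr8:94172368-94172617 for Mt2, and capitals mark MRE core motifs.
Mt1: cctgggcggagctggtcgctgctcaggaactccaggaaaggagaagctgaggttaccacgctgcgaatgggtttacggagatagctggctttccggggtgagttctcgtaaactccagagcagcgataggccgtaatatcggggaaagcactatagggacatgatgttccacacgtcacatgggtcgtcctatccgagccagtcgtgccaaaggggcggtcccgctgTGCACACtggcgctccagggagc
Mt2: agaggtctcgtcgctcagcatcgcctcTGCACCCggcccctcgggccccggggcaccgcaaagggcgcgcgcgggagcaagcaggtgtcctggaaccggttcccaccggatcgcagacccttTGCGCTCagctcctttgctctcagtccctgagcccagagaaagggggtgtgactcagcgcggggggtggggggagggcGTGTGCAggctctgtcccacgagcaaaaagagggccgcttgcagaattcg

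The core was searched as TGCACNC or TGCGCNC on both strands. Mt1 held 1 match, at -23 to -17 from the start, and Mt2 held 3, at -223 to -217, -128 to -122 and -50 to -44. At least 1 match was present in 21.4% of all 32851 promoter windows of that length and at least 3 in 1.26%. The share of G and C was 58.8% in the Mt1 window, 67.6% in that of Mt2 and 71.2% in that of Slc30a1. The mean of all windows was 53.2%, and the background was not matched for G and C. Slc30a1, which encodes the exporter ZnT1, held 1 match at -43 to -37, while the windows of Mt3, Mtf1, Slc39a1 and both windows of Slc39a10 held 0. The window of Mt4, which is not a member, also held 1, at -91 to -85. The exact GR palindrome, AGAACA and TGTTCT with 3 bases between them, had no match in the windows of the 7 members with a promoter entry. Only 0.00913% of all windows hold it, so its absence here tells little, and variants of it were not searched. AGAACA by itself matched in the window of Mtf1 alone, at -223 to -218 (16.1% of all windows hold it). These are matches of letters in a short window upstream of an annotated start, and elements farther away or downstream of that start are outside it. The windows of Mt1 and Mt2 end at 94179088 and 94172617, while their coding sequences begin at 94179311 and 94172848. The bases between were not searched, so the matches are not a full count of MREs near these genes.

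Mt1 was by far the most abundant of the members, and with GR siRNA it was lower whether or not DEX was present. Its level was 454 FPKM with control siRNA, 462 with control siRNA and DEX, 357 with GR siRNA and 343 with GR siRNA and DEX. The columns without and with DEX lie close together, and both GR siRNA columns lie below both control siRNA columns. The value with GR siRNA was 21.3% lower without DEX (log2 difference −0.34) and 25.8% lower with DEX (−0.43). DEX itself went with +1.88% in control siRNA cells and −3.93% in GR siRNA cells. In RNA from a whole culture, fewer cells expressing a gene and less of its RNA per cell cannot be told apart. Mt1 ranked between 168 and 229 of all genes by FPKM in the 4 columns, so it is among the most abundant transcripts of these cells.

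Mt2, its neighbour and the other widely expressed metallothionein, was lower in the same columns but less evenly. It stood at 82.5 FPKM with control siRNA, 72.5 with control siRNA and DEX, 49.2 with GR siRNA and 53.9 with GR siRNA and DEX. Both GR siRNA columns are again below both control columns, while the DEX columns lie inside the range of the others. The difference was −0.73 without DEX (40.3% lower) and −0.42 with DEX (25.6% lower). With DEX the value was 12.1% lower in control siRNA cells and 9.54% higher in GR siRNA cells.

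Mt1 and Mt2 were also summed as a pair. Mt1 is the larger part, so the sum mostly follows Mt1. It does not settle the overlap of Mt2 with its antisense gene. The sum was 536 and 535 FPKM in the control siRNA columns without and with DEX, against 407 and 397 FPKM in the GR siRNA columns. This is 24.2% lower without DEX and 25.7% lower with DEX, while DEX went with −0.272% in control siRNA cells and −2.30% in GR siRNA cells. Mt1 exceeded Mt2 by a ratio of 5.50, 6.38, 7.26 and 6.37 in the 4 columns. The ratio was thus lowest with control siRNA alone and highest with GR siRNA alone, and nearly equal in the DEX columns.

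Markers of other cells were read beside these values. All 11 endothelial markers reached 1 FPKM, with a summed level of 2534 and 2551 FPKM in the control and 2390 and 2332 FPKM in the GR siRNA columns. Most of that gap was Cldn5, a tight junction gene, at 493 and 525 FPKM against 368 and 332 FPKM, and the median difference of the 11 was −0.029 without and −0.0015 with DEX. Markers of fibroblasts and mural cells summed to 6.61 and 6.40 FPKM with control siRNA and 12.3 and 11.4 FPKM with GR siRNA, with 2 of 9 at 1 FPKM or more and Rgs5 at 0 throughout. Those 2 were higher with GR siRNA: Dcn was 0.387 and 0.297 FPKM against 1.99 and 2.73 FPKM (differences of 1.11 and 1.52), and Acta2 was 5.65 and 5.60 FPKM against 8.82 and 7.71 FPKM (0.56 and 0.40). Lung epithelium markers summed to between 7.11 and 8.15 FPKM, with 3 of 9 at 1 FPKM or more. Of 8 leukocyte markers 7 were in the table, Ptprc and Cd3e were at 0, and Cd68 made up nearly all of sums of 177 and 161 FPKM with control siRNA and 194 and 219 FPKM with GR siRNA. The part of these cells in the values of Mt1 and Mt2 was not tested.

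Mt3, known as the metallothionein of the brain, was close to the detection filter and did not follow Mt1 and Mt2. It was 0.778 FPKM with control siRNA, 1.74 with control siRNA and DEX, 1.46 with GR siRNA and 0.837 with GR siRNA and DEX. Low and high values do not sort by siRNA or by DEX. The difference with DEX was 0.62 in control siRNA cells and −0.42 in GR siRNA cells, so the difference of these differences was −1.04. The columns with the lower values are also the shallower ones: the relative depth of the columns, estimated from the commonest ratio between columns among values under 0.1 FPKM, was 0.671 for control siRNA and 0.811 for GR siRNA with DEX, against 0.962 for control siRNA with DEX and 1 for GR siRNA. The part of depth in these Mt3 values was not tested. Mt4, the metallothionein of stratified epithelia, was listed at 0 in 3 of the columns and at 0.0968 FPKM in control siRNA with DEX.

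**Figure D1:**
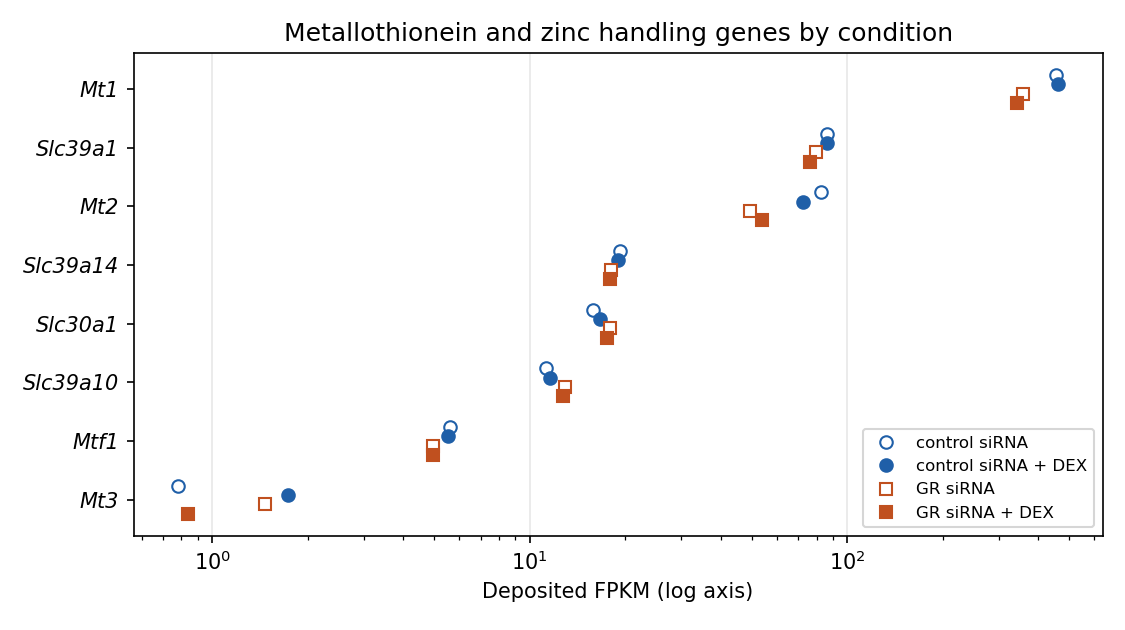
Deposited FPKM (log axis) of the 8 genes, 1 point per condition; GR siRNA is drawn as squares, control siRNA as circles, and DEX as a filled symbol. For Mt1 and Mt2 the squares lie left of the circles (343 and 357 FPKM against 454 and 462 for Mt1), whereas the Mt3 points, between 0.778 and 1.74 FPKM, do not sort by siRNA.

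Mtf1, which encodes the zinc sensor MTF-1, was expressed at a low and even level and was slightly lower with GR siRNA. It is encoded on chromosome 4 at 124802104 to 124849800, plus strand (ENSMUSG00000028890.13). Its values were 5.62 FPKM with control siRNA, 5.53 with control siRNA and DEX, 4.97 with GR siRNA and 4.94 with GR siRNA and DEX. The differences between siRNAs were −0.15 without DEX and −0.14 with DEX, and those with DEX were −0.021 and −0.0072. Over all genes compared, the median size of the siRNA difference, whatever its sign, was 0.133 without and 0.131 with DEX. Those of Mtf1 are thus near that of a typical gene. The GR siRNA columns lie below the control columns by a small margin: the lower control column was 1.11 times the higher GR siRNA column.

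The exporter gene Slc30a1 went the other way. ZnT1, its product, sits in the plasma membrane and is a known target of MTF-1; the gene is on chromosome 1 at 191906767 to 191913247, plus strand (ENSMUSG00000037434.7). It stood at 15.8 FPKM with control siRNA, 16.6 with control siRNA and DEX, 17.9 with GR siRNA and 17.5 with GR siRNA and DEX. Both GR siRNA columns were above both control columns, by differences of 0.17 without DEX and 0.068 with DEX. The latter is smaller than the 0.073 between the control columns without and with DEX, and than the median size over all genes with DEX (0.131).

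Of the importers, Slc39a1 and Slc39a14 were slightly lower with GR siRNA. Slc39a1 (ZIP1, a zinc importer of the plasma membrane; chromosome 3, 90248172 to 90253612, plus strand, ENSMUSG00000052310.9) was 86.46 FPKM with control siRNA, 86.50 with control siRNA and DEX, 79.6 with GR siRNA and 76.2 with GR siRNA and DEX. Its control columns are nearly equal, and the GR siRNA columns were lower by differences of −0.12 without DEX and −0.18 with DEX. The first is smaller than the median size over all genes without DEX (0.133). Other genes, among them its processed copy Slc39a1-ps, hold 27.7% of the 31-base stretches of its transcript, so part of its reads may have been assigned elsewhere. Slc39a14 (ZIP14, which carries zinc, manganese and iron not bound to transferrin; chromosome 14, 70303469 to 70351425, minus strand, ENSMUSG00000022094.15) was 19.2, 18.9, 18.0 and 17.9 FPKM in the same order of conditions. The differences with GR siRNA were −0.093 and −0.077, both smaller than the median size over all genes (0.133 without and 0.131 with DEX).

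Slc39a10 was slightly higher with GR siRNA. ZIP10, its product, is an importer whose gene is known to be held down by MTF-1 when zinc is high; it is on chromosome 1 at 46807544 to 46892852, minus strand (ENSMUSG00000025986.6). Its level was 11.2 FPKM with control siRNA, 11.6 with control siRNA and DEX, 12.9 with GR siRNA and 12.7 with GR siRNA and DEX. The GR siRNA columns lie above the control columns, by 0.19 without DEX and 0.13 with DEX. The median size over all genes was 0.133 without and 0.131 with DEX.

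Few members differed by much between siRNAs, and the share of all genes is given beside each count. At least 1.5-fold between siRNAs without DEX was reached by 1 of the 8 members, Mt2, where 4.9% of the 11325 genes compared reached it in either direction and 2.54% did so downward. With DEX it was reached by 0 of the 8, against 4.98% of 11344 genes in either direction and 2.62% downward, with Mt3 just short of it at −0.58. A smaller difference, of at least 0.32 on the log2 scale, was reached by 3 of the 8 in each of these comparisons, against 16.6% of genes without and 16.5% with DEX: Mt1, Mt2 and Mt3. Without DEX 2 of them were lower (8.86% of genes) and Mt3 was higher (7.7%), and with DEX all 3 were lower (8.69%). A 2-fold difference without DEX was reached by 0 of the 8 and by 1.5% of genes. The median difference of the 8 members was −0.11 without DEX and −0.16 with DEX, and that of all genes compared −0.014 and −0.0085.

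The columns of the siRNAs did not overlap for 7 of the 8 members, 5 lower and 2 higher with GR siRNA. This is near the background, since 36.6% of 11445 genes had both GR siRNA columns below both control columns and 32.3% had both above. Asking for a gap of at least 0.32 on the log2 scale between the nearest columns left Mt1 and Mt2, both lower, where 4.99% of genes had such a gap downward and 4.34% upward. Mt1 lies just past that gap and falls short of it after rescaling the columns to a common upper quartile.

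For DEX most members differed little, and so did genes at large. The median size of the difference over all genes was 0.050 with control siRNA and 0.067 with GR siRNA. The GR target genes of the check list also differed little: in control siRNA cells Fkbp5 was 2.86% higher with DEX, Per1 9.13% and Tsc22d3 14.1%. At least 1.5-fold was reached with control siRNA by 1 of the 8, Mt3, where 1.08% of 11227 genes reached it in either direction and 0.686% upward, and with GR siRNA by 0 of the 8, where 1.18% of 11310 did. A 2-fold difference with control siRNA was reached by 0 of the 8 and 0.837% of genes, and 0.32 on the log2 scale with GR siRNA by Mt3, as by 2.23% of genes. Without Mt3, the differences with DEX ran from −0.18 (Mt2) to 0.073 (Slc30a1) in control siRNA cells and from −0.062 (Slc39a1) to 0.13 (Mt2) in GR siRNA cells. For Mt2, 2.59% of genes were at least as far down in control siRNA cells and 12.0% as far up in GR siRNA cells. Its difference between these DEX differences was 0.31, reached upward by 2.46% of genes. The difference between these DEX differences reached 1.5-fold for Mt3 alone, against 1.71% of 11445 genes in either direction and 0.961% downward. None of the 8 had both DEX columns above or both below the columns without DEX, which 7.79% and 8.3% of genes had.

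**Figure D2:**
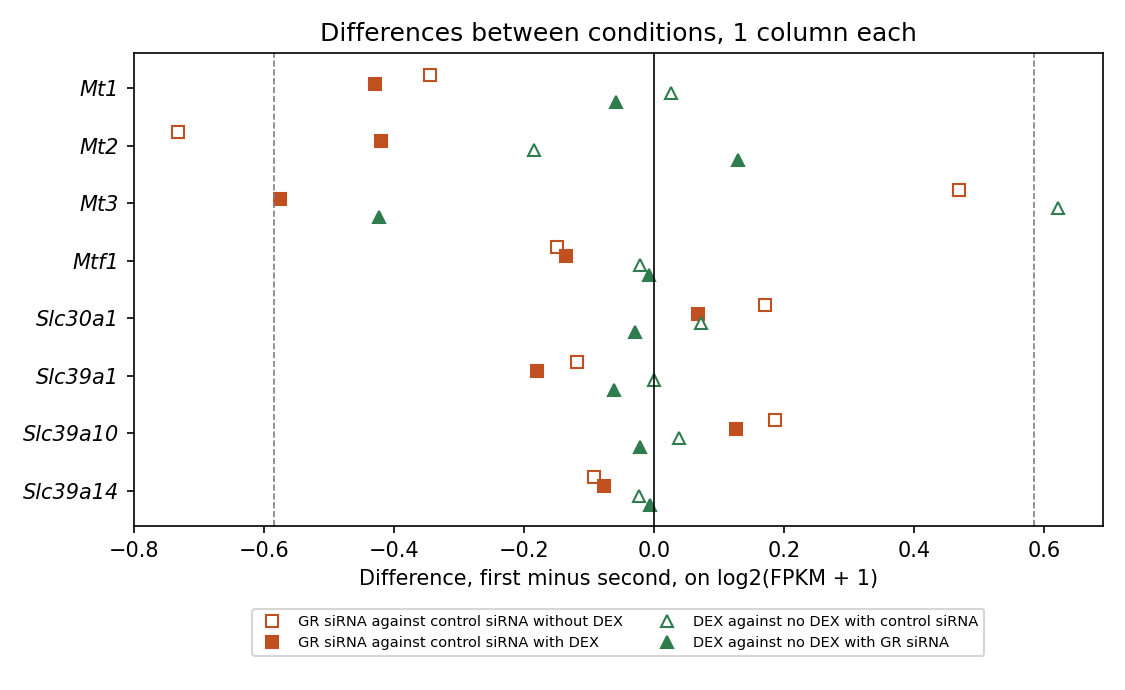
Differences on log2(FPKM + 1) for the 8 genes, 1 column against 1: squares are GR siRNA minus control siRNA, triangles DEX minus no DEX, and dashed lines mark 1.5-fold. Mt2 without DEX (−0.73) lies past the left line and Mt3 with DEX in control siRNA cells (0.62) past the right one, while the triangles of the transporters and Mtf1 stay near 0.

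The rest of the zinc transport families was read from lists of all ZIP, ZnT and metallothionein genes. Of 14 ZIP genes, 10 reached 1 FPKM in at least 1 column, and 0 of them differed by 1.5-fold between siRNAs in either DEX state, against 4.9% and 4.98% of all genes. Their median difference with GR siRNA was 0.15 without DEX and 0.020 with DEX. Both GR siRNA columns were higher for 6 of the 10 (Slc39a3, Slc39a6, Slc39a7, Slc39a8, Slc39a10 and Slc39a11) and lower for Slc39a1 and Slc39a14, where 32.3% of all genes had both higher and 36.6% both lower; Slc39a9 joined the higher genes under both rescalings of the columns. A gap of 0.32 on the log2 scale was reached by Slc39a11 alone among them, upward, as by 4.34% of all genes.

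Slc39a11 (ZIP11, an importer found in inner membranes of the cell) was 16.4 and 16.2 FPKM with control siRNA without and with DEX, against 22.6 and 22.2 FPKM with GR siRNA. The difference was 0.43 without and 0.44 with DEX, close in size to that of Mt1 with DEX and opposite in sign. Slc39a6 (ZIP6) was 13.6 and 13.1 FPKM against 16.8 and 17.7 FPKM, with differences of 0.28 and 0.41. Slc39a7 (ZIP7), which releases zinc from the endoplasmic reticulum, was the most abundant ZIP gene, at 118 and 117 FPKM against 128 and 120 FPKM, with a gap of 1.02 times between its nearest columns. Slc39a8 (ZIP8, a relative of ZIP14) was low, at 1.09 and 1.10 FPKM against 1.39 and 1.43 FPKM. Slc39a3 (ZIP3) was 7.94 and 9.22 FPKM against 9.77 and 9.23 FPKM, and its columns with DEX were level between siRNAs. Slc39a9 and Slc39a13 overlapped between siRNAs as deposited, within 14.5 to 15.8 and 16.7 to 17.8 FPKM.

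Of 10 ZnT genes, 6 reached 1 FPKM. Of these, 0 differed by 1.5-fold between siRNAs, against 4.9% of all genes without and 4.98% with DEX, which is near that background. Their median difference was 0.033 without and 0.041 with DEX. Slc30a4, which loads zinc into vesicles, was the most abundant, at 59.2 and 55.8 FPKM with control siRNA without and with DEX and 54.0 and 55.7 FPKM with GR siRNA. Slc30a9, linked to zinc export from mitochondria, was lower with GR siRNA, at 15.7 and 15.9 FPKM against 12.7 and 13.2 FPKM (differences of −0.28 and −0.25). Slc30a5, Slc30a6 and Slc30a7, which serve the early secretory pathway, had highest values of 25.6, 12.9 and 6.63 FPKM, and Slc30a7 differed by 0.21 without and 0.14 with DEX. Slc30a3 and Slc30a8 were listed at 0 in every column, and Slc30a2 and Slc30a10 stayed below 0.13 FPKM.

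Among other zinc genes, Trpm7, a channel that passes zinc and other divalent ions, lay between 17.4 and 18.3 FPKM. Tmem163, a zinc efflux protein, lay between 1.07 and 1.14 FPKM, and the zinc receptor gene Gpr39 reached 0.0633 FPKM at most. The genes on either side of the metallothionein cluster, named for their position, were Bbs2 at 2.15, 2.35, 2.04 and 2.34 FPKM and Nup93 at 28.2, 27.1, 30.0 and 31.3 FPKM. The columns of Bbs2 overlapped between siRNAs, and both GR siRNA columns of Nup93 were above both control columns, as in 32.3% of 11445 genes. Mt1 and Mt2 had both below, which is also common, at 36.6% of those genes.

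**Figure D3:**
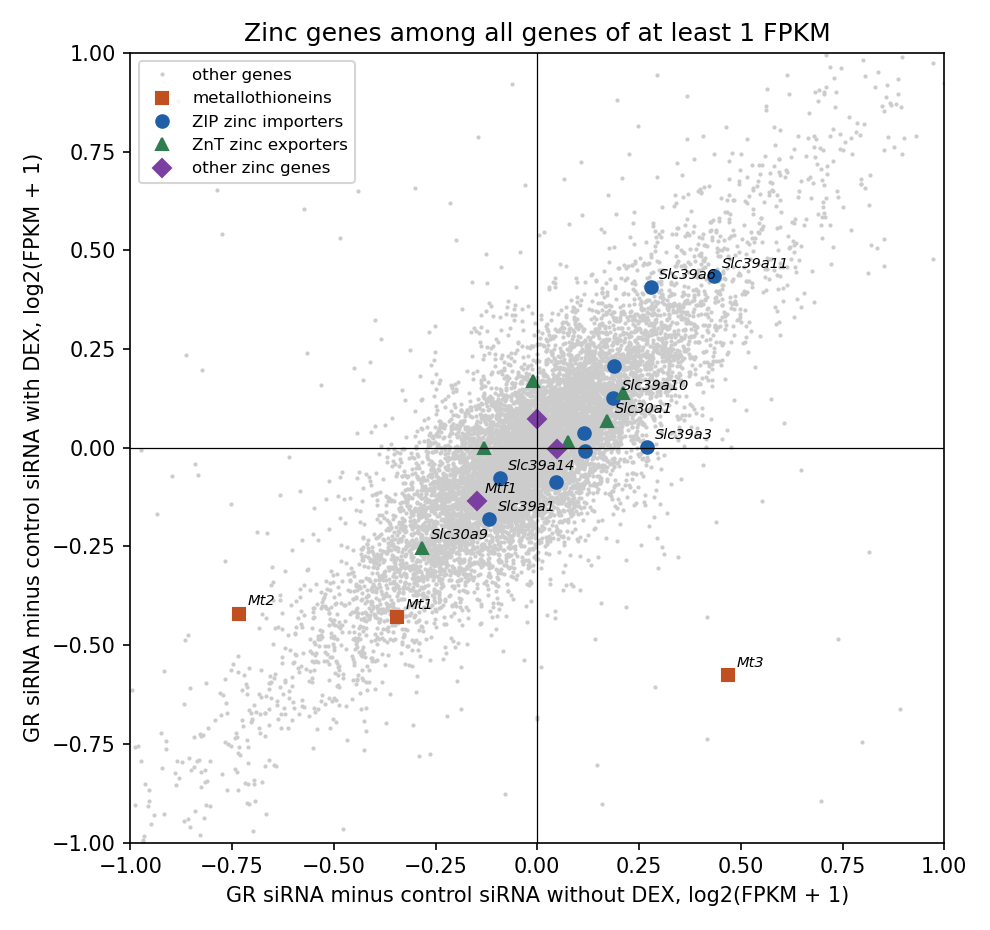
GR siRNA minus control siRNA on log2(FPKM + 1), without DEX (horizontal) against with DEX (vertical), for genes of at least 1 FPKM; 228 of 11445 genes fall outside the axes. Mt1 and Mt2 lie at lower left, Slc39a11 and Slc39a6 at upper right, and Mt3 in the lower right corner, with a positive value without DEX (0.47) and a negative one with DEX (−0.58).

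The genes with the profile closest to each member were found by Euclidean distance between centred log2(FPKM + 1) profiles over the 4 columns, among 8635 other genes of at least 5 FPKM. With 4 columns, many genes lie close to any profile, and the distance is a description. The nearest to Mt1 were Sema3g, Snx25 and Cyfip1 (distances 0.0071, 0.018 and 0.023). The nearest to Mt2 were Cenpq, Crhbp and Prr11 (0.070, 0.073 and 0.081). Mt2 itself was in place 2109 from Mt1, at a distance of 0.28. For Mtf1 they were Zfp553, Stx2 and Aebp2, for Slc30a1 Pycrl, Sox17 and Telo2, and for Slc39a10 Efhd2, Ripk3 and Slc35e4. For Slc39a1 they were Brwd1, Haus6 and Srsf4, and for Slc39a14 Emc8, Hnrnpll and Capn5.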

How the data were processed

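The authors deposited FPKM per gene, 1 column per condition; TopHat2, Cuffdiff and the mm10 build are named per the submitters' processing notes. Versions, annotation, strand setting and replicate handling: not given in the sources used here. Columns were matched to samples by name. Differences used log2(FPKM + 1) among genes of at least 1 FPKM in a column compared (Python 3.11.15, pandas 2.3.3); counts used 1.5-fold. FPKM holds no counts, so absolute depth is unknown and no interval was computed. Relative depth is the modal ratio of values under 0.1 FPKM between columns, within 0.2%. Counting was tested on simulated data with little noise and planted changes well past 1.5-fold. This checks the counting code only, not calls near the threshold or at low FPKM.

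The 8 members and the 11 gene lists (105 symbols, 1 absent) were chosen with earlier results of these data known. Named were all members, any gene of the zinc lists, of the marker lists and of the GR check list, up to 4 copper and 4 iron genes with the largest mean difference between siRNAs, and the 3 nearest profiles per member of at least 5 FPKM, passing over predicted genes, clones and small RNAs. Bbs2, Nup93 and Gm45774 were named for position, and Slc39a1-ps and Pip5k1a for shared sequence. Coordinates, coding sequences and 31-base stretches come from GENCODE M21 (GRCm38, the same assembly as mm10), and promoters from RefSeq (GRCm38.p6), with 7 of 8 members matched.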

Additional observations from a re-analysis of the deposited data

Results flagged for a closer look

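Mt3 was the member whose difference with DEX had opposite signs in the siRNA arms, each past 0.32 on the log2 scale: 0.62 with control siRNA and −0.42 with GR siRNA, a difference of −1.04. The same 4 values give a difference between siRNAs of 0.47 without DEX and −0.58 with DEX. Each arm is 1 column against 1, so the difference was not tested, and the highest Mt3 value was 1.74 FPKM.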

How the results depend on the processing

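No paired analysis was possible because the table has 1 column per condition. No replicate could be left out for the same reason. The differences of Mt1, Mt2, Mtf1 and the 4 transporters kept their sign under pseudocounts of 0.1 and 5 FPKM, no filter, a filter of 5 FPKM and both rescalings, wherever a value was given, and moved by under 0.1. Mt3 kept its signs but not its size: its DEX difference in control siRNA cells was 0.22 at a pseudocount of 5 and 1.07 at 0.1, and it dropped out at a filter of 5 FPKM. Counts of members past 1.5-fold moved with it. Between siRNAs without DEX the count of 1 became 2 at a pseudocount of 0.1, and between siRNAs with DEX the count of 0 became 1, as it did for DEX with GR siRNA. For DEX with control siRNA and for the difference between the DEX differences, the count of 1 became 0 at a pseudocount of 5 and at the 5 FPKM filter. Shares of all genes were not computed at the changed pseudocounts and filters, so these counts stand without a background. At the lower threshold of 0.32 on the log2 scale the counts were 3 for each siRNA comparison and 1 for DEX with GR siRNA. At 2-fold they were 0 between siRNAs without DEX and 0 for DEX with control siRNA. Rescaling changed no count past 1.5-fold. Among lists, Slc30a4 no longer separated the siRNAs and Slc30a6 did so, as did Tmem163 and Trpm7, all 3 higher with GR siRNA, under both rescalings.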

Other observations

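Copper and iron genes, metals that metallothioneins and ZIP14 also touch, were read for comparison. Of 15 iron handling genes of at least 1 FPKM, 2 were at least 1.5-fold lower with GR siRNA in each DEX state and 0 higher, against 2.54% and 2.62% of all genes lower. They were Slc40a1, which encodes the iron exporter ferroportin, at 6.66 and 6.38 FPKM with control siRNA without and with DEX against 3.38 and 3.26 FPKM with GR siRNA, and Fbxl5, an iron-sensing ubiquitin ligase subunit, at 31.7 and 32.0 FPKM against 19.7 and 20.8 FPKM. Hmox1, the heme-degrading oxygenase, was 346 and 318 FPKM against 241 and 245 FPKM. Cp, the ferroxidase ceruloplasmin, stood without DEX at 1.51 FPKM in the control and 0.784 FPKM in the GR siRNA column. The list median was −0.047 without and −0.096 with DEX.

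Of 10 copper handling genes, 0 differed by 1.5-fold between siRNAs, against 4.9% of all genes without and 4.98% with DEX, which is near that background. The list median was −0.0091 without DEX (0.015 after rescaling to a common upper quartile) and −0.074 with DEX. Atp7a, a copper pump, was 12.6 and 11.1 FPKM against 9.02 and 7.97 FPKM. Sod1, a copper and zinc enzyme, was 426 and 435 FPKM against 355 and 357 FPKM. Commd1 was 58.4 and 60.1 FPKM against 46.1 and 51.0 FPKM, and Sco2, a copper chaperone of mitochondria, went the other way, with 34.9 and 37.9 FPKM against 44.1 and 44.0 FPKM.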
